A study of Mus musculus with 115 samples.

Results

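The expression changes of mouse liver between 2 and 9 months of age, the step from young adult to mature adult, were taken from the main count table of a series on ageing. The members are its 5 liver libraries labelled 9 months and its 4 liver libraries labelled 2 months, 9 of the 115 samples. The series holds poly(A) RNA sequencing of blood, brain, liver and skin of mice at 5 ages, namely 2, 9 and 15 months and then 24 and 30 months, and 112 of its samples are in the main table. All animals were male C57BL/6J mice without treatment, drawn at random from a breeding facility, and 1 cm3 of snap-frozen liver was taken from each, so that each library holds whole tissue of 1 animal. Blood and skin came from other animals than liver, going by the animal numbers in the labels. A further 2-month liver that stands in a separate table entered 1 alternative analysis only.

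Liver size, sexual maturity and most metabolic functions are established by early adulthood, and adult hepatocytes seldom divide. The liver also carries its own circadian clock. In it, the activator BMAL1 (gene Arntl) with its partners CLOCK or NPAS2 switches on the Per, Cry, Ciart, Bhlhe41, Nr1d1, Dbp and Tef genes through E-boxes. The PER and CRY proteins then inhibit the activator, the REV-ERB proteins (Nr1d1, Nr1d2) repress Arntl, Npas2 and Cry1, and DBP, TEF and HLF act on D-boxes in a further set of genes that includes Per3. Arntl and Dbp transcripts therefore peak at opposite times of day.

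The libraries held 21348084 to 34797293 counts at 9 months and 23483352 to 31790346 at 2 months, and the means differed by less than the spread between libraries for total counts, the mitochondrial share and the share of the top 10 genes (exact permutation test, two-sided, p = 0.667, 0.286 and 0.794, adjusted p = 0.794 over the 3 tests, against a smallest possible p of 0.0159). Albumin (Alb), the main secreted protein of hepatocytes, stood at 102749, 88868, 105035, 78342 and 72052 CPM in the 9-month livers, against 73713, 88336, 80364 and 75214 CPM in the 2-month livers. CPM are counts scaled to a common library total and adjusted between libraries by the trimmed mean of M-values. The defining transcript of the labelled tissue was thus abundant in all 9 libraries. Library 1 of 2 months (replicate 1) stood apart. Its acute phase transcripts summed to 299341 CPM, against 42831 to 71448 CPM in the other 2-month livers, and its top 10 genes held 24.39% of all counts, against 16.35% to 18.05%. Every pair of liver libraries differed by far more than sampling noise, so none was counted as a duplicate.

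Of 16319 genes tested, 104 were higher and 166 lower at 9 months than at 2 months (edgeR quasi-likelihood test, Benjamini-Hochberg adjusted p under 0.05), which is 1.65% of genes, 0.637% higher and 1.02% lower. At an unadjusted p under 0.05 there were 2394 of the 16319 genes, and of the same genes DESeq2 called 548 and limma voom 200. The median log2 fold change of all genes was 0.01. In 5.64% of all genes the 9-month and 2-month libraries did not overlap, as was the case for 88 of the 104 called higher and 133 of the 166 called lower. The number of calls rested on single libraries, with 37 genes called without 2-month replicate 2 and 87 without 9-month replicate 1, and 35 genes were called in the full fit and in each of the 9 fits that left out 1 library. Labels do not say that the animals of an age came from separate litters or cages, so p-values measure the spread between these mice only.

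Among 45 gene lists, the circadian clock held the most called members (11 of 23 tested, 47.8%), followed by acute phase genes (5 of 39) and heat shock genes (4 of 21). In 24 lists edgeR called no member. These had 0 to 8 members each at an unadjusted p under 0.05, DESeq2 called members in 9 of them and limma voom in 1.

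**Figure D1:**
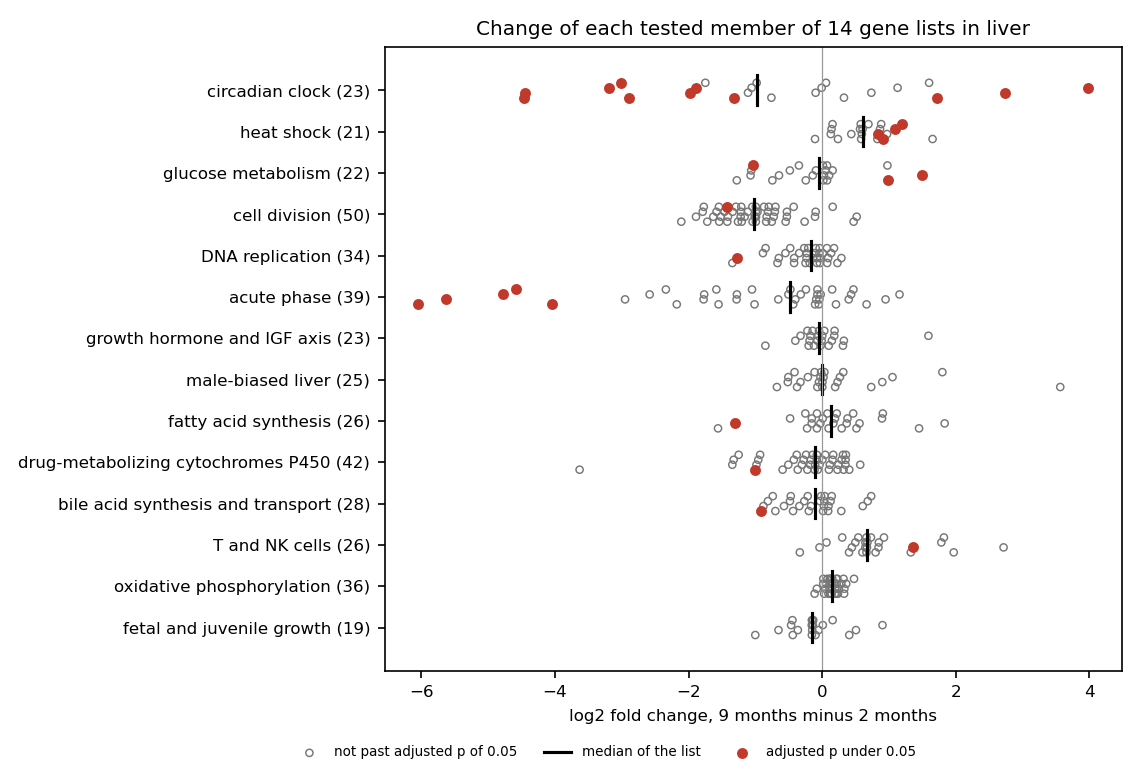
Log2 fold change (9 months minus 2 months, x axis) of every tested member of 14 gene lists, with the number tested in brackets. Filled points passed an adjusted p of 0.05, open points did not, and the black bar is the median of the list. Clock genes lie on both sides of 0, from -4.47 for Dbp to 3.99 for Npas2, and 47 of the 50 cell division genes lie below 0 with 1 of them called.

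The clock genes changed in both directions: Arntl, Npas2 and Cry1 were higher at 9 months, while Dbp, Ciart, Tef, Per3, Cry2, Bhlhe41, Usp2 and Wee1 were lower. Of the 23 members tested, 3 were called higher at 9 months and 8 lower, beside 0.637% and 1.02% of all genes, with a median log2 fold change of -0.98. In 12 of the 23 the libraries of the ages did not overlap, beside 5.64% of all genes. With each library left out in turn, edgeR called 2 or 3 of the named members higher and 4 to 8 lower, the fewest without 2-month replicate 2. Without 2-month replicates 1 and 2, an alternative chosen after seeing the data, none was called higher and 5 were called lower. The hour at which the mice were sampled is not given in the sources used here, so that age and hour of sampling cannot be told apart for these genes.

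The positive arm was high at 9 months. Arntl (ENSMUSG00000055116, chr7:113207465-113314126, GRCm38) had 35.7, 35.7, 39.6, 29.7 and 23.7 CPM in the 9-month livers, against 8.34, 2.18, 6.15 and 3.22 CPM in the 2-month livers. All 9-month livers lay above all 2-month livers, a 6.66-fold difference (log2 fold change 2.74, SE 0.50, adjusted p = 0.00859). Npas2, which encodes the alternative partner of BMAL1, had 6.55, 7.43, 16.4, 3.08 and 3.56 CPM in the 9-month livers, against 0.781, 0.326, 0.449 and 0.329 CPM in the 2-month livers. The ages again did not overlap, and 9-month replicates 4 and 5 were the lowest of their age (log2 fold change 3.99, SE 0.69, adjusted p = 0.00651). Clock itself had 65.8, 73.8, 71.4, 57.5 and 77.6 CPM in the 9-month livers, against 26.4, 30.8, 50.8 and 58.0 CPM in the 2-month livers, did not pass the test (adjusted p = 0.264) and had 2-month replicate 4 within the range of the 9-month livers. Cry1, a repressor whose transcript peaks late in the cycle, was also higher, with 13.2, 14.9, 34.6, 28.7 and 13.03 CPM in the 9-month livers, against 5.73, 5.37, 5.88 and 8.41 CPM in the 2-month livers. Its ages did not overlap, but the call (log2 fold change 1.72, SE 0.40, adjusted p = 0.0302) was lost without 9-month replicates 3 and 4, or 2-month replicates 1, 2 and 3, each left out alone (adjusted p of 0.0599 to 0.113).

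The output arm was low at 9 months. Dbp (ENSMUSG00000059824, chr7:45705088-45710203), an activator at D-boxes and the clock gene with the largest fall, had 0.381, 0.905, 0.557, 0.953 and 7.59 CPM in the 9-month livers, against 26.4, 72.7, 36.6 and 40.0 CPM in the 2-month livers. Replicate 5 of 9 months stood far above the other 9-month livers and still lay below every 2-month liver (log2 fold change -4.47, SE 0.77, adjusted p = 0.00651). Tef, the related D-box factor, had 25.7, 36.8, 39.6, 39.6 and 74.0 CPM in the 9-month livers, against 103, 217, 152 and 165 CPM in the 2-month livers. Here too replicate 5 was the highest of its age and the ages were separate (log2 fold change -1.89, SE 0.34, adjusted p = 0.00782). Hlf, the remaining member of that family, had 14.3, 23.6, 30.8, 29.7 and 48.1 CPM in the 9-month livers, against 42.8, 73.9, 55.4 and 58.5 CPM in the 2-month livers, with 9-month replicate 5 inside the 2-month range, and did not pass the test (log2 fold change -0.98, adjusted p = 0.137). Nfil3, which represses at the same D-boxes, had 92.7, 72.2, 89.0, 100.2 and 47.3 CPM in the 9-month livers, against 41.1, 18.2, 22.3 and 24.3 CPM in the 2-month livers. The ages did not overlap, yet the difference of 1.60 did not pass (adjusted p = 0.0859).

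Among the repressors, Ciart (listed as Gm129, ENSMUSG00000038550, chr3:95878503-95882251) had 0.343, 0.624, 0.464, 0.403 and 0.817 CPM in the 9-month livers, against 8.25, 27.7, 4.44 and 5.85 CPM in the 2-month livers. Replicate 2 of 2 months was the highest by far, and the lowest 2-month liver still exceeded the highest 9-month liver (log2 fold change -4.46, SE 0.72, adjusted p = 0.00421). Per3 (ENSMUSG00000028957, chr4:151003652-151044665) had 2.06, 2.87, 2.20, 2.20 and 5.86 CPM in the 9-month livers, against 12.9, 35.8, 16.2 and 23.9 CPM in the 2-month livers. No libraries overlapped (log2 fold change -2.89, SE 0.56, adjusted p = 0.0118), and the call was lost without 2-month replicate 2 (adjusted p = 0.06). Cry2 had 9.64, 14.4, 17.2, 12.3 and 25.1 CPM in the 9-month livers, against 32.3, 52.8, 35.5 and 35.6 CPM in the 2-month livers, again without overlap (log2 fold change -1.31, SE 0.24, adjusted p = 0.00782), with the call lost without 2-month replicate 2 (adjusted p = 0.0503). Bhlhe41, which encodes DEC2, had 0.610, 0.343, 0.309, 0.769 and 1.92 CPM in the 9-month livers, against 2.52, 9.18, 7.58 and 5.34 CPM in the 2-month livers, a fall of 3.01 on the log2 scale (SE 0.56, adjusted p = 0.0089). The other repressors did not pass. Nr1d1, encoding REV-ERB alpha, had 28.4, 30.3, 10.6, 22.6 and 72.3 CPM in the 9-month livers, against 91.2, 140.2, 107 and 102 CPM in the 2-month livers and separate ages (log2 fold change -1.75, adjusted p = 0.113). The log2 fold change was -1.05 for Nr1d2 (adjusted p = 0.159), for Per2 -1.11 (adjusted p = 0.22) and for Per1 -0.76 (adjusted p = 0.498), all with overlapping ages. Bhlhe40, the paralogue of Bhlhe41, averaged 110.0 ± 36.9 CPM at 9 months and 110.4 ± 31.9 CPM at 2 months (SD, n = 5 and 4) and did not pass (adjusted p = 0.996).

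A pair of clock-controlled genes outside the loop also fell. Usp2, a deubiquitinase, had 1.52, 3.37, 3.62, 4.10 and 3.27 CPM in the 9-month livers, against 8.46, 62.7, 16.3 and 28.9 CPM in the 2-month livers, without overlap (log2 fold change -3.19, SE 0.81, adjusted p = 0.045), but the call was lost without 9-month replicates 1, 2, 3, 4 and 5, or 2-month replicates 2, 3 and 4, each left out alone (adjusted p of 0.061 to 0.199). Wee1, the kinase that restrains entry into mitosis, had 1.91, 0.874, 1.05, 1.28 and 2.16 CPM in the 9-month livers, against 1.69, 9.48, 4.35 and 7.17 CPM in the 2-month livers. Replicate 1 of 2 months lay inside the 9-month range, and the call (log2 fold change -1.98, SE 0.41, adjusted p = 0.0165) was lost without 2-month replicate 2 (adjusted p = 0.0937). Some exons of clock genes share bases with a gene on the opposite strand. These were Dbp with Sphk2 over 539 bases, Bhlhe41 with Gm43909 over 510, Nr1d1 with Thra over 263 and Usp2 with Gm39325 and Gm49380 over 200. Shorter stretches were shared by Tef with Gm17597 (193), Cry2 with D930015M05Rik (149), Bhlhe40 with 0610040F04Rik (118) and Arntl with Gm45355 (33). Whether counting used strand is not given in the sources used here, so reads of such partners may have been mixed.

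**Figure D2:**
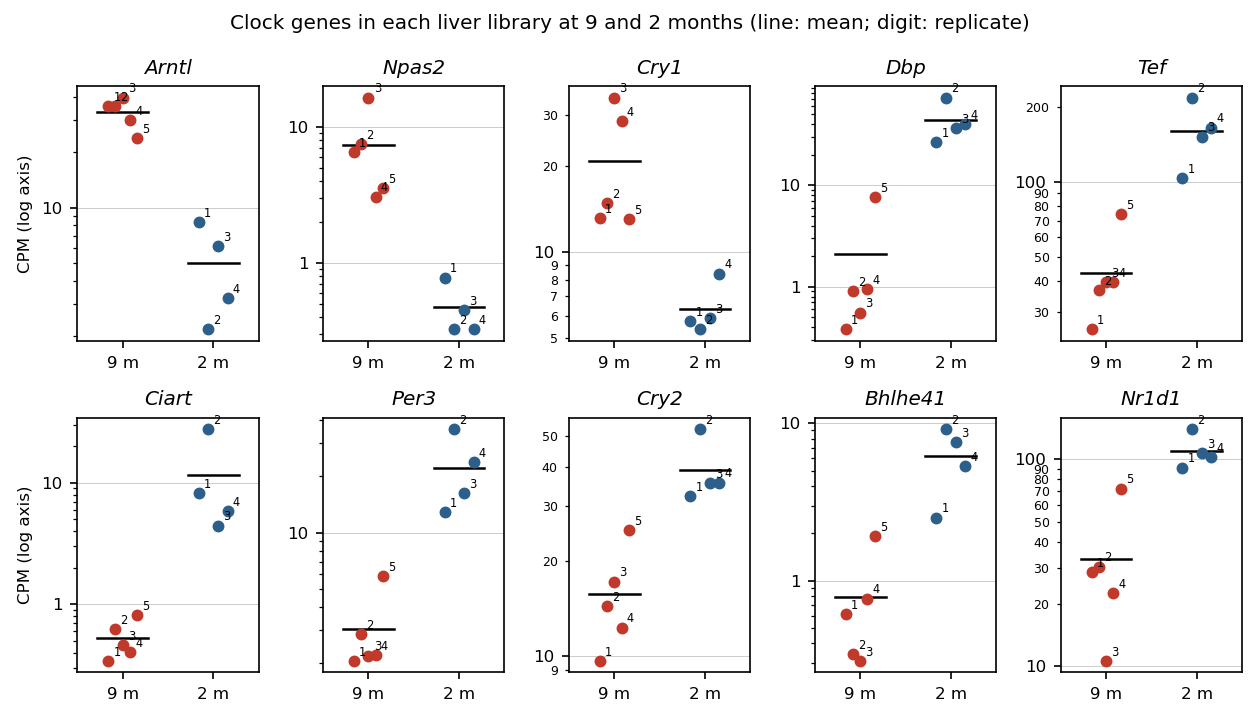
CPM (log axis) of 10 clock genes in each liver library, 5 at 9 months and 4 at 2 months. Points are libraries, digits are replicate numbers and lines are group means. The 9-month points lie above the 2-month points for Arntl, Npas2 and Cry1 and below them for the 7 other genes, and 9-month replicate 5 (Dbp 7.59 CPM) is the nearest to the 2-month livers for Dbp, Tef, Ciart, Per3, Cry2, Bhlhe41 and Nr1d1.

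The 2 DNA elements through which the loop works were looked for in RefSeq promoters (build GRCm38.p6, 250 bases before to 50 after the start, both strands) and the stretches found in called genes are shown because BMAL1 acts through the E-box and DBP and TEF through the D-box. The E-box searched was CACGTG, which is its own reverse complement, and the D-box TTATGTAA. Promoters were matched for 19 of the 23 tested clock genes and for 10 of the 11 called ones. An E-box stood in 4 of those 10, in 3 of the 7 that were lower and in 1 of the 3 that were higher, while 8.09% of the 27025 genes with a promoter held one. A D-box stood in 1 of the 10, beside 1.11% of all genes. Over all 19 matched clock genes, called or not, 6 held an E-box and 1 a D-box. The stretches are written on the strand of the gene, and capitals mark the element.
Ciart, 3 E-boxes (chr3:95882252-95882359, minus strand): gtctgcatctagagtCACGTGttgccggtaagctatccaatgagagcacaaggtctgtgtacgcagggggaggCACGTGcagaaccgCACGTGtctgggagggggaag
Tef, E-box of the upstream start (chr15:81802531-81802566, plus strand): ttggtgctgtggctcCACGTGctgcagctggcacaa
Tef, E-box of the downstream start (chr15:81811261-81811296, plus strand): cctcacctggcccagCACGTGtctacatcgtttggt
Bhlhe41, E-box (chr6:145865553-145865588, minus strand): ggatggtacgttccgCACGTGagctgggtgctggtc
Cry1, E-box (chr10:85185094-85185129, minus strand): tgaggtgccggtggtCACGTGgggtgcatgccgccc
Per3, 2 D-boxes (chr4:151044801-151044885, minus strand): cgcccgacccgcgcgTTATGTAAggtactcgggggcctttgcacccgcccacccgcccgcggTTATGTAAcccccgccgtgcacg
Ciart, with the most E-boxes, and Per3, with both D-boxes, were both lower at 9 months, while Cry1 carried the same E-box and was higher. These are matches of letters only.

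At later ages the median levels of Dbp and Arntl lay between those of the 9-month and 2-month livers. Medians of Dbp were 22.7 CPM at 15 months, 29.2 CPM at 24 months and 12.4 CPM at 30 months, and 11 of the 15 older livers lay below the 2-month range. Arntl had medians of 18.01 CPM at 15 months, 10.7 CPM at 24 months and 20.5 CPM at 30 months, and 13 of the 15 lay above the 2-month range. The difference of log2 CPM between Arntl and Dbp, used as a clock score with 0.5 CPM added to each, ran from 1.58 to 5.36 at 9 months and from -4.77 to -1.60 at 2 months. It spanned -0.80 to 0.22 at 15 months, -5.18 to 0.61 at 24 months and -1.41 to 2.79 at 30 months. The 15-month livers were close together and the 24-month livers reached below the lowest 2-month liver. When this score was added to the fit as a covariate, a choice made after seeing the data, 165 genes were called and 21 of them were among the 270. The score did not overlap between the ages, so that the covariate and the age share most of their information, and the part of the score in the other results was not tested further.

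**Figure D3:**
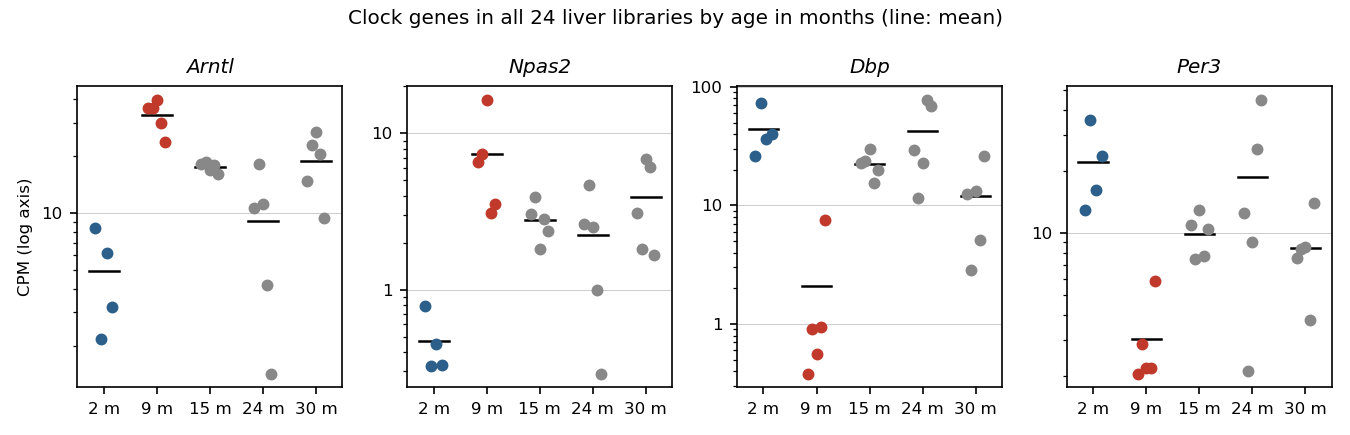
CPM (log axis) of Arntl, Npas2, Dbp and Per3 in all 24 liver libraries by age in months. Points are libraries and lines are means of an age. For Arntl the 15-month livers lie between the 9-month livers (23.7 to 39.6 CPM) and the 2-month livers, and 1 of the 24-month livers lies below all 2-month livers for Arntl and Npas2.

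The change of the clock genes in liver was set against the same step in skin and in blood, each with 5 libraries at 9 months and 5 at 2 months. The difference of the change passed the test for 15 of 23 clock genes between liver and skin, beside 0.841% of 18777 genes, and for 8 of 23 between liver and blood, beside 1.04% of 16524 genes. Over all genes the differences from blood numbered 172, and 280 without 2-month liver replicate 1. Per3 differed from skin by -3.61 on the log2 scale (SE 0.43, adjusted p = 0.00114), its change in skin being 0.73 (adjusted p = 0.162). For Dbp the difference was -6.03 from skin (adjusted p = 0.0107) and -4.14 from blood (adjusted p = 0.0194). Ciart differed by -4.67 from skin (adjusted p = 0.00165) and by -4.69 from blood (adjusted p = 0.00955), and Arntl by 2.54 (adjusted p = 0.0144) and 2.89 (adjusted p = 0.00163). Per1, Per2, Bhlhe40 and Clock passed in neither comparison. Skin and blood came from the same mice as each other, and both comparisons use the same 9 livers, so that their results are not independent. Liver came from different mice, so a difference between tissues and one between groups of mice cannot be told apart.

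Several genes outside the clock list changed in a way that every fit without 1 library called. Tspyl4 (ENSMUSG00000039485, chr10:34297442-34301320), a member of the TSPY-like family, had the smallest p of all genes, with 12.2, 14.7, 15.7, 6.92 and 6.78 CPM in the 9-month livers, against 2.52, 2.44, 2.24 and 1.83 CPM in the 2-month livers. The ages did not overlap, and replicates 4 and 5 were the lowest 9-month livers (log2 fold change 2.32, SE 0.27, adjusted p = 0.000228). Clpx, the ATP-binding subunit of a mitochondrial matrix protease, had 237, 198, 304, 364 and 283 CPM in the 9-month livers, against 125, 74.1, 98.7 and 91.5 CPM in the 2-month livers (log2 fold change 1.51, SE 0.23, adjusted p = 0.0022). It was higher in every 9-month liver than in any 2-month liver. Hsf2bp, known for a part in meiotic recombination, was low in all libraries, with 3.85, 2.56, 1.89, 2.60 and 2.69 CPM in the 9-month livers, against 0.695, 0.195, 0.404 and 0.329 CPM in the 2-month livers (log2 fold change 2.76, SE 0.40, adjusted p = 0.0022). Grm8, a metabotropic glutamate receptor, had 7.58, 8.71, 8.69, 3.96 and 3.85 CPM in the 9-month livers, against 1.35, 0.391, 2.38 and 1.43 CPM in the 2-month livers (log2 fold change 2.26, SE 0.35, adjusted p = 0.0022). Serpine2, a secreted inhibitor of serine proteases, had 19.9, 15.9, 27.2, 20.9 and 28.9 CPM in the 9-month livers, against 2.00, 1.56, 6.42 and 4.50 CPM in the 2-month livers. Its 2-month libraries 3 and 4 held more than 1 and 2, and all lay below the 9-month livers (log2 fold change 2.65, SE 0.44, adjusted p = 0.00506). With the clock score as covariate, which did not overlap between the ages, edgeR still called Serpine2 (log2 fold change 3.96, adjusted p = 0.00939). That fit did not call Tspyl4 (1.46, adjusted p = 0.0991), Clpx (0.85, adjusted p = 0.24), Hsf2bp (1.37, adjusted p = 0.159) or Grm8 (1.87, adjusted p = 0.118). Without 2-month replicates 1 and 2 Serpine2 was not called (adjusted p = 0.0915), while Tspyl4, Clpx, Hsf2bp and Grm8 were.

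Among the falls of that kind, Wdr6 (ENSMUSG00000066357, chr9:108572311-108578739), a WD repeat protein, had 7.85, 10.4, 12.9, 10.1 and 12.5 CPM in the 9-month livers, against 21.1, 21.9, 27.3 and 24.4 CPM in the 2-month livers. The 2-month livers lay within a narrow range, above all 9-month livers (log2 fold change -1.14, SE 0.16, adjusted p = 0.00182). Upp2, a uridine phosphorylase of liver, had 150.4, 194, 123, 94.3 and 151 CPM in the 9-month livers, against 384, 729, 354 and 518 CPM in the 2-month livers (log2 fold change -1.799, SE 0.28, adjusted p = 0.0022). Slc5a6, the sodium-dependent vitamin transporter for biotin and pantothenate, had 4.00, 5.49, 5.35, 4.29 and 6.30 CPM in the 9-month livers, against 11.2, 20.6, 14.1 and 15.8 CPM in the 2-month livers (log2 fold change -1.60, SE 0.24, adjusted p = 0.0022). The ages were apart for both. Azin2, listed under its older name Adc, is an antizyme inhibitor of polyamine metabolism and averaged 0.406 ± 0.0946 CPM at 9 months and 1.46 ± 0.186 CPM at 2 months (SD, n = 5 and 4; log2 fold change -1.85, SE 0.29, adjusted p = 0.00271). Trib3, a pseudokinase induced by stress, had 1.52, 1.59, 1.11, 4.14 and 4.18 CPM in the 9-month livers, against 12.8, 14.1, 5.38 and 9.29 CPM in the 2-month livers (log2 fold change -2.07, SE 0.37, adjusted p = 0.00782), the 1 called gene among 26 of endoplasmic reticulum stress. That 1 gene is 3.85% of its list, beside 1.65% of all genes. With the clock score as covariate, which did not overlap between the ages, edgeR still called Wdr6 (log2 fold change -1.26, adjusted p = 0.0423). That fit did not call Upp2 (-0.50, adjusted p = 0.596), Slc5a6 (-0.35, adjusted p = 0.628), Azin2 (-0.71, adjusted p = 0.49) or Trib3 (-0.82, adjusted p = 0.49). Without 2-month replicates 1 and 2 Trib3 was not called (adjusted p = 0.114), while Wdr6, Upp2, Slc5a6 and Azin2 were. Tspyl4 shares 1466 exon bases with Gm47512, Wdr6 379 with Dalrd3, Slc5a6 242 with Atraid and Hsf2bp 54 with Rrp1b, in each case on the opposite strand.

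Some of these levels held at all later ages and others did not. All 15 livers of 15, 24 and 30 months lay above the 2-month range for Tspyl4, Hsf2bp and Serpine2, and all 15 below it for Wdr6 and Upp2. Medians of Hsf2bp were 2.74 CPM at 15 months, 3.60 CPM at 24 months and 6.01 CPM at 30 months, the median being highest in the oldest livers. Medians of Upp2 were 155 CPM at 15 months, 240.0 CPM at 24 months and 159 CPM at 30 months. By contrast, Trib3 had medians of 7.34 CPM at 15 months, 12.04 CPM at 24 months and 8.32 CPM at 30 months, with 1 of 15 below the 2-month range and 1 above it, and Clpx of 186 CPM at 15 months, 129.8 CPM at 24 months and 169 CPM at 30 months, with 12 of 15 above. These counts share the 2-month libraries with the comparison itself and are a description.

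**Figure D4:**
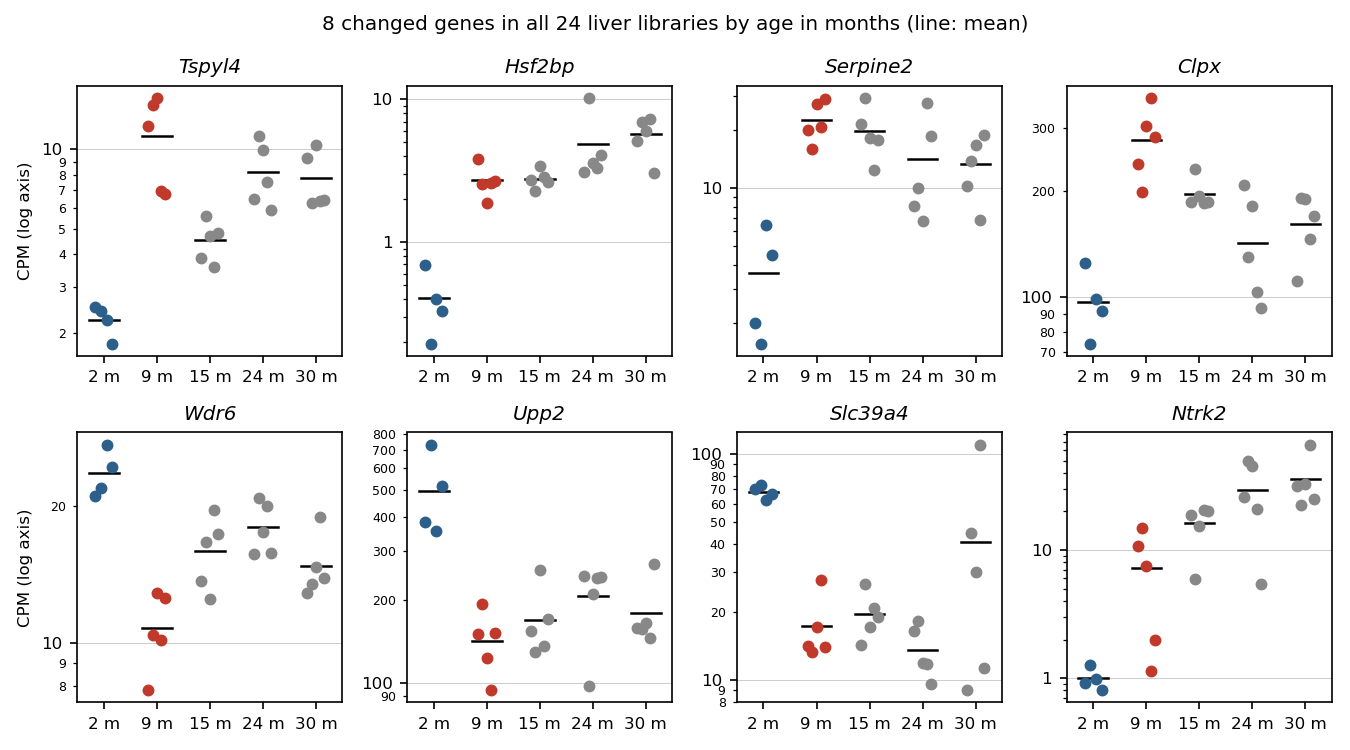
CPM (log axis) of 8 called genes in all 24 liver libraries by age in months; points are libraries and lines are means. For Tspyl4, Hsf2bp, Serpine2 and Ntrk2 all 15 older livers lie above the 2-month livers, for Clpx 12 of 15 do, for Wdr6 and Upp2 all 15 lie below them, and for Slc39a4 14 of 15 lie below them.

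Further large changes were less stable. Chka, choline kinase, had 406, 162, 201, 85.5 and 73.2 CPM in the 9-month livers, against 42.9, 20.9, 26.5 and 22.9 CPM in the 2-month livers, with no overlap and a wide spread at 9 months (log2 fold change 2.71, SE 0.53, adjusted p = 0.0118). The call was lost without 2-month replicate 2 (adjusted p = 0.06). Rgs16, a brake on G protein signalling in hepatocytes, had 3.09, 0.936, 1.05, 2.89 and 3.70 CPM in the 9-month livers, against 8.77, 47.1, 8.62 and 26.4 CPM in the 2-month livers (log2 fold change -3.31, SE 0.80, adjusted p = 0.0362), and its call was lost without 9-month replicates 1, 2, 3, 4 and 5, or 2-month replicates 2 and 4, each left out alone (adjusted p of 0.0502 to 0.156). Slc39a4, a zinc importer, had 14.1, 13.3, 17.2, 27.8 and 13.9 CPM in the 9-month livers, against 69.7, 72.8, 62.8 and 66.6 CPM in the 2-month livers. Its 2-month livers were close together and far above all 9-month livers (log2 fold change -1.98, SE 0.47, adjusted p = 0.0323), although the call was lost without 9-month replicates 1, 2, 3 and 5, or 2-month replicates 2, 3 and 4, each left out alone (adjusted p of 0.0567 to 0.102).

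Of 22 genes of glucose metabolism, 2 were called higher and 1 lower, beside 0.637% and 1.02% of all genes, with a median of -0.04. All 3 act on glycogen. Ppp1r3c, a subunit that directs protein phosphatase 1 to glycogen, had 88.4, 131, 112, 163 and 129 CPM in the 9-month livers, against 49.4, 47.4, 29.0 and 50.2 CPM in the 2-month livers, called in every fit that left out 1 library (log2 fold change 1.501, SE 0.24, adjusted p = 0.00339). Ppp1r3b, the main such subunit of liver, had 206, 276, 382, 207 and 288 CPM in the 9-month livers, against 143, 141, 129 and 136 CPM in the 2-month livers. It was higher in all 9-month livers (log2 fold change 0.99, SE 0.23, adjusted p = 0.0278), with the call lost without 9-month replicate 3, or 2-month replicates 1, 2, 3 and 4, each left out alone (adjusted p of 0.0504 to 0.0896). Gys2, the liver glycogen synthase, had 72.98, 88.3, 87.5, 78.2 and 114 CPM in the 9-month livers, against 93.0, 226, 205 and 197 CPM in the 2-month livers, where 2-month replicate 1 fell inside the 9-month range (log2 fold change -1.03, SE 0.23, adjusted p = 0.0226). Its call was lost without 9-month replicates 1 and 4, or 2-month replicates 2, 3 and 4, each left out alone (adjusted p of 0.053 to 0.103). Pck1, which commits carbon to glucose synthesis, averaged 1769 ± 678 CPM at 9 months and 2766 ± 519.6 CPM at 2 months (SD, n = 5 and 4) and did not pass (adjusted p = 0.246).

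Lipid genes showed few changes, with 1 of 26 fatty acid synthesis genes called (3.85%), beside 1.65% of all genes. Srebf1, the transcription factor of fatty acid synthesis, was the 1 called gene of the 26 in that list, with 98.0, 150.3, 153, 72.6 and 182 CPM in the 9-month livers, against 531, 310.5, 229 and 220.985 CPM in the 2-month livers and no overlap (log2 fold change -1.30, SE 0.29, adjusted p = 0.0268). The call was lost without 9-month replicates 1 and 4, or 2-month replicates 1 and 2, each left out alone (adjusted p of 0.0643 to 0.0888). Its targets Fasn and Scd1 did not pass, with 537 ± 178 CPM at 9 months and 566 ± 91.4 CPM at 2 months for Fasn and 15018 ± 4802 CPM at 9 months and 10178 ± 1477 CPM at 2 months for Scd1 (SD, n = 5 and 4). G0s2, the inhibitor of the triglyceride lipase ATGL, had 19.5, 47.3, 20.5, 163 and 74.5 CPM in the 9-month livers, against 12.9, 26.2, 10.6 and 10.9 CPM in the 2-month livers (log2 fold change 2.10, SE 0.53, adjusted p = 0.0415), while Pnpla2, which encodes ATGL, had 46.9, 60.0, 50.5, 50.5 and 45.5 CPM in the 9-month livers, against 59.3, 106, 82.5 and 74.3 CPM in the 2-month livers (log2 fold change -0.67, SE 0.17, adjusted p = 0.044). In both genes the ages overlapped. The call of G0s2 was lost without 9-month replicates 2, 4 and 5, or 2-month replicates 1, 2, 3 and 4, each left out alone (adjusted p of 0.0533 to 0.133). That of Pnpla2 was lost without 9-month replicates 1, 3, 4 and 5, or 2-month replicates 2, 3 and 4, each left out alone (adjusted p of 0.0676 to 0.22).

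Of 28 genes of bile acid synthesis and transport 1 was called, and of 42 drug-metabolizing cytochrome P450 genes and their reductase 1. These are 3.57% and 2.38%, beside 1.65% of all genes. Abcg5, which with Abcg8 exports sterols into bile, had 63.6, 75.4, 65.7, 36.4 and 47.0 CPM in the 9-month livers, against 127, 118, 89.2 and 98.4 CPM in the 2-month livers (log2 fold change -0.91, SE 0.19, adjusted p = 0.0165), and the call was lost without 2-month replicate 2 (adjusted p = 0.0663). Por, the electron donor of microsomal P450 enzymes, had 195, 180.2, 167, 183 and 122 CPM in the 9-month livers, against 375, 449, 267 and 272 CPM in the 2-month livers (log2 fold change -1.01, SE 0.21, adjusted p = 0.0165), and the call was lost without 2-month replicate 2 (adjusted p = 0.0905). For both, every 9-month liver lay below every 2-month liver. Slc10a2, a sodium-dependent bile acid importer that in liver belongs to bile duct cells, had 65.1, 31.4, 62.2, 29.2 and 21.1 CPM in the 9-month livers, against 20.4, 8.11, 7.63 and 9.44 CPM in the 2-month livers and rose (log2 fold change 1.88, SE 0.38, adjusted p = 0.0138). It was chosen here after its values were seen. That call was lost without 2-month replicates 2 and 3, each left out alone (adjusted p of 0.0523 to 0.0688). Bhmt, which remethylates homocysteine with betaine, was the 1 called gene among 36 of the urea cycle and amino acid breakdown (2.78%, beside 1.65% of all genes). It had 1756, 1382, 1251, 2062 and 1646 CPM in the 9-month livers, against 1060, 834, 1154.2 and 663 CPM in the 2-month livers (log2 fold change 0.80, SE 0.21, adjusted p = 0.0496). Its call was lost without 9-month replicates 1, 2, 4 and 5, or 2-month replicates 1, 2, 3 and 4, each left out alone (adjusted p of 0.0556 to 0.169).

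Of 21 heat shock genes 4 were called higher and none lower, beside 0.637% and 1.02% of all genes. Among the 21, 20 had a log2 fold change above 0, and the median was 0.61 beside 0.01 over all genes. Hsp90aa1, the inducible HSP90, had 316, 325.3, 253.7, 248 and 259 CPM in the 9-month livers, against 102, 72.1, 174 and 143 CPM in the 2-month livers, with no overlap (log2 fold change 1.19, SE 0.29, adjusted p = 0.0389). Stip1, the co-chaperone linking HSP70 and HSP90, had 133, 129, 93.5, 144 and 104 CPM in the 9-month livers, against 62.0, 56.0, 68.0 and 70.4 CPM in the 2-month livers (log2 fold change 0.91, SE 0.17, adjusted p = 0.0092). Hspa4l, a relative of HSP110, had 53.8, 48.1, 43.0, 42.2 and 49.5 CPM in the 9-month livers, against 17.3, 17.6, 28.8 and 25.4 CPM in the 2-month livers (log2 fold change 1.09, SE 0.25, adjusted p = 0.0279). The ages were separate in all of these, and in Chordc1, another HSP90 co-chaperone, with 76.1, 59.2, 49.0, 56.2 and 50.5 CPM in the 9-month livers, against 27.0, 26.2, 37.8 and 39.9 CPM in the 2-month livers (log2 fold change 0.83, SE 0.20, adjusted p = 0.0365). The inducible HSP70 gene Hspa1b spanned 19.3, 56.2, 10.3, 10.1 and 9.23 CPM in the 9-month livers, against 3.08, 8.66, 18.1 and 32.3 CPM in the 2-month livers, which overlapped (adjusted p = 0.8291). The call did not hold for Stip1 without 2-month replicate 2 (adjusted p = 0.0566), for Hspa4l without 9-month replicate 1, or 2-month replicates 1 and 2, each left out alone (adjusted p of 0.068 to 0.117), for Hsp90aa1 without 9-month replicates 1, 2, 3 and 4, or 2-month replicates 1, 2 and 4, each left out alone (adjusted p of 0.0544 to 0.161), or for Chordc1 without 9-month replicates 1, 2 and 4, or 2-month replicates 1, 2 and 3, each left out alone (adjusted p of 0.0576 to 0.155). In this list 1 member was called without 2-month replicate 1 or without 9-month replicate 1, and none without 2-month replicate 2. With all libraries, 14 of the 21 members had an unadjusted p under 0.05, DESeq2 called 10 and limma voom 4. Of all 16319 genes 2394 had such a p, DESeq2 called 548 and limma voom 200. With the clock score as covariate, which did not overlap between the ages, edgeR called no heat shock gene.

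Genes of cell division were mostly lower at 9 months without passing one by one. Of 50 tested, 47 had a log2 fold change below 0 and the median was -1.02, yet 1 was called, beside 1.02% of all genes called lower. At an unadjusted p under 0.05 there were 27 of the 50, beside 2394 of all 16319 genes. DESeq2 called 4, beside 548 of all genes, and limma voom none, beside 200. Birc5, which encodes survivin, had 0.915, 0.999, 0.619, 0.843 and 0.673 CPM in the 9-month livers, against 1.43, 2.60, 2.20 and 2.49 CPM in the 2-month livers (log2 fold change -1.43, SE 0.34, adjusted p = 0.0327), and the call was lost without 9-month replicates 1, 3, 4 and 5, or 2-month replicates 2, 3 and 4, each left out alone (adjusted p of 0.0579 to 0.115). Mki67, the Ki-67 antigen of cycling cells, had 2.86, 3.06, 3.87, 0.733 and 1.63 CPM in the 9-month livers, against 1.48, 10.8, 9.56 and 6.73 CPM in the 2-month livers. Replicate 1 of 2 months was low and the other 3 were high, so that the ages overlapped (log2 fold change -1.54, adjusted p = 0.297). The same library had 1.87 CPM of Top2a and 0.347 CPM of Ccnb1, against 4.89 to 8.01 CPM and 1.56 to 3.28 CPM in the other 2-month livers. The summed level of the list was 74.8 to 129.9 CPM at 9 months and 73.2, 155, 199.6 and 172 CPM at 2 months. Without that library 4 members were called lower. With the clock score as covariate 11 were called lower, with a median of -3.05. That score did not overlap between the ages, so the fit cannot part age from score, and no conclusion is drawn from the larger fall.

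On the list of DNA replication 1 of 34 genes was called, beside 1.02% of all genes called lower, and the median was -0.16. Cdt1, which loads the replicative helicase, was this gene and had 1.22, 2.03, 1.58, 1.79 and 2.31 CPM in the 9-month livers, against 3.86, 5.31, 4.49 and 3.58 CPM in the 2-month livers (log2 fold change -1.27, SE 0.21, adjusted p = 0.00506). Gmnn, geminin, the inhibitor of Cdt1, is not on that list, was chosen after its values were seen and had 3.24, 3.31, 3.22, 3.88 and 4.13 CPM in the 9-month livers, against 7.64, 7.20, 4.89 and 6.80 CPM in the 2-month livers (log2 fold change -0.90, SE 0.16, adjusted p = 0.00859). Neither gene had overlapping ages, and both were called in every fit without 1 library. Cdk1, the mitotic kinase, had 1.22, 1.56, 1.15, 1.47 and 0.577 CPM in the 9-month livers, against 1.61, 2.38, 4.04 and 3.77 CPM in the 2-month livers and did not pass (adjusted p = 0.158).

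Acute phase genes were called lower at 9 months, but the calls rested on particular 2-month libraries. Of 39 tested, 5 were called lower, beside 1.02% of all genes, 31 had a log2 fold change below 0, and the median was -0.47. In none of them were the ages apart. Saa1, serum amyloid A, had 221.978, 91.4, 259.8, 884 and 65.2 CPM in the 9-month livers, against 26570, 2139, 291 and 122 CPM in the 2-month livers. Saa2 had 131, 74.8, 170.2, 501 and 39.1 CPM in the 9-month livers, against 34196, 2063, 153 and 64.5 CPM in the 2-month livers, and the similar sequences of the Saa1 and Saa2 genes may have shared reads. Saa3 had 11.6, 13.2, 7.08, 21.7 and 4.66 CPM in the 9-month livers, against 699, 563, 9.24 and 4.97 CPM in the 2-month livers. Libraries 1 and 2 of 2 months exceeded every 9-month liver in these 3 genes, and libraries 3 and 4 did not. Lcn2, lipocalin-2, which binds bacterial siderophores, had 11.7, 8.55, 14.7, 24.9 and 5.24 CPM in the 9-month livers, against 3250, 188, 6.55 and 2.999 CPM in the 2-month livers. Orm2, an acid glycoprotein with the near-identical copy Orm1, had 95.0, 53.3, 64.7, 163 and 71.8 CPM in the 9-month livers, against 5204, 573, 86.4 and 68.4 CPM in the 2-month livers. Hp, haptoglobin, exceeded the 9-month range in library 1 alone, with 2737, 2098, 3282, 5887 and 2069 CPM in the 9-month livers, against 29087, 4417, 2837 and 2181 CPM in the 2-month livers. Mt1, a metallothionein that binds zinc, was highest in library 1 as well, with 216, 7.08, 170.4, 15.0 and 2.60 CPM in the 9-month livers, against 1378, 102, 3.01 and 3.77 CPM in the 2-month livers.

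The fitted log2 fold changes were -4.58 for Saa1 (adjusted p = 0.0474), -5.64 for Saa2 (adjusted p = 0.0345), -4.78 for Saa3 (adjusted p = 0.0127), -6.04 for Lcn2 (adjusted p = 0.0316) and -4.05 for Orm2 (adjusted p = 0.0253). Without library 1 they were -1.51 (adjusted p = 0.423), -2.08 (adjusted p = 0.301), -4.07 (adjusted p = 0.0264), -2.36 (adjusted p = 0.254) and -1.47 (adjusted p = 0.245), in the same order. Of these 5, Saa3 alone was still called. Without libraries 1 and 2 of 2 months all 5 lay above 0, at 0.54 (adjusted p = 0.868), 0.73 (adjusted p = 0.827), 0.70 (adjusted p = 0.665), 1.44 (adjusted p = 0.632) and 0.19 (adjusted p = 0.933), and edgeR called none of the 39 genes. Leaving out 2-month replicate 2 alone, edgeR also called none, and limma voom on all libraries none, against 8 by DESeq2. With the 9 libraries alone, without the older livers, edgeR called none as well. The count also moved with other libraries. It was 1 without 9-month replicate 1, 2, 3 or 5, 4 without 9-month replicate 4, 7 without 2-month replicate 3 and 9 without 2-month replicate 4. Neutrophil markers moved with these genes, as the 16 tested summed to 2952 CPM in library 1, 478 CPM in library 2 and 297 and 244 CPM in libraries 3 and 4, against 231.6 to 722.3 CPM at 9 months. Whether neutrophils or hepatocytes supplied the transcripts was not tested.

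**Figure D5:**
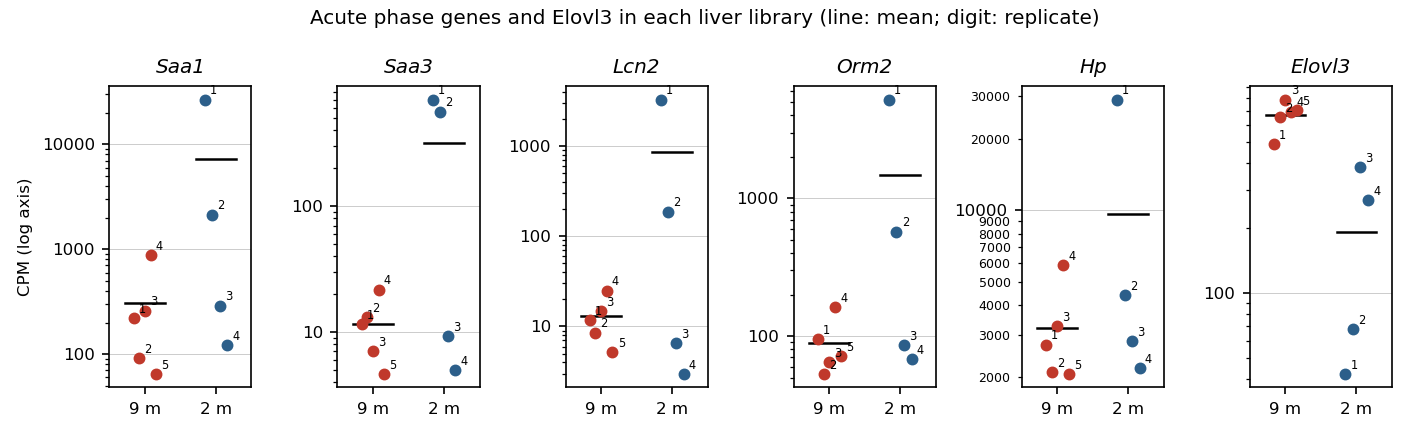
CPM (log axis) of 5 acute phase genes and of Elovl3 in each liver library, 5 at 9 months and 4 at 2 months. Points are libraries, digits are replicate numbers and lines are group means. Libraries 1 and 2 of 2 months are the 2 highest for Saa1, Saa3, Lcn2 and Orm2 and the 2 lowest for Elovl3, while libraries 3 and 4 lie within the 9-month range for the 5 acute phase genes except for Lcn2 in library 4 (2.999 CPM).

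Library 1, and for some genes library 2, of 2 months also had the lowest levels of genes that growth hormone pulses keep high in males. Elovl3, a fatty acid elongase, had 490.4, 652, 787, 694 and 706 CPM in the 9-month livers, against 42.3, 67.8, 384 and 269.9 CPM in the 2-month livers. No libraries overlapped, but the difference did not pass (adjusted p = 0.403). Hsd3b5, a male steroid reductase, had 144, 173, 84.0, 296 and 239 CPM in the 9-month livers, against 45.7, 118, 294 and 273 CPM in the 2-month livers. Slco1a1, an organic anion importer, had 275, 306, 340.1, 533 and 591 CPM in the 9-month livers, against 86.5, 321.9, 510.2 and 734 CPM in the 2-month livers. In both, library 1 of 2 months was the lowest of all 9, and libraries 3 and 4 reached or passed most 9-month livers. Cyp4a12a, a male fatty acid hydroxylase, had 194, 364, 292, 304 and 423 CPM in the 9-month livers, against 123, 231.3, 701 and 624 CPM in the 2-month livers. Mup20, a urinary pheromone protein, had 6198, 5020, 3510, 6287 and 4560 CPM in the 9-month livers, against 1669, 1105, 3454 and 4721 CPM in the 2-month livers. Libraries 1 and 2 lay below libraries 3 and 4 of 2 months in both. Of 25 male-biased genes edgeR, DESeq2 and limma voom called none, and the median was 0.00. At an unadjusted p under 0.05 there was 1, beside 2394 of all 16319 genes.

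Genes of growth and of the fetal liver gave no calls between these ages. Of 23 genes of the growth hormone and IGF axis edgeR, DESeq2 and limma voom called none, 2 had an unadjusted p under 0.05, and the median was -0.05. Igf1 averaged 618 ± 60.0 CPM at 9 months and 544 ± 29.8 CPM at 2 months and Ghr, the growth hormone receptor, 573 ± 77.3 CPM at 9 months and 576 ± 132 CPM at 2 months (SD, n = 5 and 4). Of 19 fetal and juvenile genes tested none was called by any of the 3 tools, with 2 at an unadjusted p under 0.05. Afp, the fetal albumin, was at 1.801 ± 0.390 CPM at 9 months and 2.01 ± 0.382 CPM at 2 months and Igf2 at 0.561 ± 0.215 CPM at 9 months and 0.618 ± 0.258 CPM at 2 months, both low at 2 months already.

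Ntrk2, the receptor of the growth factor BDNF and on the list of female-biased genes, had 10.7, 14.7, 7.55, 1.14 and 1.97 CPM in the 9-month livers, against 0.912, 1.27, 0.987 and 0.804 CPM in the 2-month livers (log2 fold change 2.86, SE 0.70, adjusted p = 0.0373). Replicate 4 of 9 months lay inside the 2-month range, the older livers had medians of 18.7 CPM at 15 months, 25.9 CPM at 24 months and 31.8 CPM at 30 months, and the call was lost without 9-month replicates 1, 2 and 3, or 2-month replicates 1, 2, 3 and 4, each left out alone (adjusted p of 0.0627 to 0.109).

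Of 25 senescence and p53 target genes 2 were called higher, beside 0.637% of all genes. Cdkn1a, which encodes p21, had 51.9, 23.7, 69.6, 22.7 and 8.99 CPM in the 9-month livers, against 12.4, 1.69, 4.53 and 2.27 CPM in the 2-month livers (log2 fold change 2.77, SE 0.66, adjusted p = 0.035). Replicate 5 of 9 months overlapped with 2-month replicate 1, and the call was lost without 9-month replicates 1 and 3, or 2-month replicates 2, 3 and 4, each left out alone (adjusted p of 0.0704 to 0.131). Ccl2, a chemokine that attracts monocytes, had 5.33, 2.996, 4.95, 2.31 and 1.92 CPM in the 9-month livers, against 0.217, 0.456, 1.44 and 1.10 CPM in the 2-month livers (log2 fold change 2.14, SE 0.52, adjusted p = 0.0369), and its call was lost without 9-month replicates 1, 2 and 3, or 2-month replicates 1, 2 and 4, each left out alone (adjusted p of 0.0533 to 0.153).

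Markers of other liver cells gave few calls. The share called was 3.85% for T and NK cells and 2.94% for collagen and matrix, beside 1.65% of all genes. In whole tissue, fewer cells of a type and less RNA per cell cannot be told apart. Zap70, a kinase of T and NK cells, was the 1 called gene among 26 of that list, with 13.99, 15.5, 12.3, 15.2 and 10.1 CPM in the 9-month livers, against 9.77, 4.98, 3.14 and 2.96 CPM in the 2-month livers (log2 fold change 1.37, SE 0.30, adjusted p = 0.0226). The call was lost without 9-month replicate 1, or 2-month replicates 2, 3 and 4, each left out alone (adjusted p of 0.0567 to 0.0863). The list as a whole had a median of 0.67, with 24 of 26 above 0, and its markers summed to 23.7 to 47.95 CPM at 9 months and 14.7 to 30.3 CPM at 2 months. Of 19 B and plasma cell genes edgeR and limma voom called none, DESeq2 1, and 3 had an unadjusted p under 0.05. In that list 18 of 19 were above 0 with a median of 0.60, and the markers summed to 553 to 1135 CPM at 9 months and 369.6 to 771 CPM at 2 months. Igkc, the kappa light chain of B and plasma cells, had 64.2, 27.6, 16.9, 10.1 and 8.84 CPM in the 9-month livers, against 12.3, 16.7, 5.47 and 5.49 CPM in the 2-month livers and did not pass (adjusted p = 0.424). Its medians at later ages were 48.9 CPM at 15 months, 63.1 CPM at 24 months and 116 CPM at 30 months. Col4a2, a basement membrane collagen, had 21.8, 31.3, 35.0, 12.3 and 20.4 CPM in the 9-month livers, against 46.2, 44.7, 69.7 and 48.9 CPM in the 2-month livers and separate ages (log2 fold change -1.11, SE 0.28, adjusted p = 0.0389), as the 1 called gene of 34 in collagen and matrix. The call was lost without 9-month replicates 1, 4 and 5, or 2-month replicates 2, 3 and 4, each left out alone (adjusted p of 0.0663 to 0.141). Ngfr, a neurotrophin receptor of stellate cells and portal fibroblasts, had 13.2, 7.83, 14.1, 7.69 and 7.07 CPM in the 9-month livers, against 3.56, 3.13, 5.07 and 4.46 CPM in the 2-month livers (log2 fold change 1.30, SE 0.29, adjusted p = 0.0228), and its call was lost without 9-month replicates 1 and 3, or 2-month replicates 1 and 2, each left out alone (adjusted p of 0.0536 to 0.103).

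Tissue other than liver was also looked for. Of 10 skeletal and smooth muscle genes tested, 9 had a log2 fold change above 0, with a median of 1.95. Of the 10, edgeR and limma voom called none, DESeq2 called 2 and 5 had an unadjusted p under 0.05. Among all 16319 genes DESeq2 called 548, and 2394 had such a p. The muscle genes summed to 18.3 to 141 CPM at 9 months, highest in replicate 4, and 6.24 to 19.1 CPM at 2 months. Of 5 adipose genes tested edgeR called 1 lower and none higher, beside 1.02% and 0.637% of all genes, with a median of 0.04. The called gene was Lipe, the hormone-sensitive lipase (log2 fold change -0.78, SE 0.18, adjusted p = 0.0316). Its ages overlapped, with 9.18 CPM in 2-month replicate 4 and up to 9.61 CPM at 9 months. The call was lost without 9-month replicates 1, 2, 3 and 4, or 2-month replicates 2 and 3, each left out alone. The adjusted p was then 0.0567 to 0.169. The 5 genes summed to 1298 to 3007 CPM at 9 months. At 2 months the sums were 149, 1746, 2501 and 2540 CPM, lowest in library 1. The part of such tissue in other results was not tested.

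The 9-month livers varied among themselves in genes of the hepatocytes around the central vein. Cyp2e1, which oxidizes ethanol, had 3202, 3075, 3438, 6523 and 6842 CPM in the 9-month livers, against 5328, 8394, 7494 and 6591 CPM in the 2-month livers. Glul, glutamine synthetase of the last layer of cells, had 383, 398, 467, 869.7 and 1028 CPM in the 9-month livers, against 966, 1004, 1069 and 923 CPM in the 2-month livers. Cyp1a2 had 259, 287, 306, 631 and 574 CPM in the 9-month livers, against 656, 980.2, 888 and 729.7 CPM in the 2-month livers. Replicates 1 to 3 of 9 months were low in all 3 genes, and replicates 4 and 5 reached or approached the 2-month livers. Of 19 pericentral genes edgeR, DESeq2 and limma voom called none, with 4 at an unadjusted p under 0.05, beside 2394 of all 16319 genes. The 19 genes summed to 6474, 6611, 6914, 11577 and 12158 CPM at 9 months and 9318 to 13899 CPM at 2 months. Whether the sampled piece of liver had a part in this was not tested.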

How the data were processed

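Poly(A) RNA of liver was sequenced as single reads of 50 bases. The authors called bases with CASAVA 1.7 and bcl2fastq 1.8.3, aligned with TopHat2 2.0.6 to GRCm38 and counted reads per gene with HTSeq 0.5.3p9, later featureCounts 1.4.3-p1, going by the submitters' processing notes. The authors did not analyse further the libraries that stood apart in their own scaling plots. Whether such libraries are also missing from the counts used here was not tested, and their absence could narrow the spread. The deposited values used are raw counts per gene; deposited RPKM tables were not used.

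The 24 livers of all 5 ages entered 1 edgeR 4.0.16 quasi-likelihood fit (R 4.3.3) with TMM scaling and filterByExpr, and the contrast was 9 minus 2 months, with calls at p under 0.05 after Benjamini-Hochberg adjustment. Interactions with skin and blood were fitted likewise. DESeq2 1.42.0 and limma 3.58.1 (voom), other scalings and filters, and each library left out in turn were alternatives. The code was tested on simulated data. CPM values are TMM-scaled.

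The comparison and the gene lists were chosen with earlier results of these data known. Genes were named by a rule: the 10 largest changes per direction among called genes with mean log2 CPM of at least 1 and ages that do not overlap, the 6 of smallest p, the 2 leading called members of each list, and a fixed set of well-known genes; not all are printed. Outside the rule, Gmnn and Slc10a2 were chosen after their values were seen, as were the further list members Cry1, Cry2, Per1, Nr1d2, Hlf, Nfil3, Wee1, Clock, Bhlhe40, Hsp90aa1, Chordc1 and Ppp1r3b. Promoter sequences are from RefSeq (GRCm38.p6). Some genes are not reported here.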

Additional observations from a re-analysis of the deposited data

Results flagged for a closer look

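In 176 groups of 4 or 5 livers, 24 held a library whose gap to the nearest of the others was too large a share of the group's range by Dixon's test. The chance rate of about 1 in 20 holds for normally distributed values of genes not picked beforehand. Here CPM were used without logarithm. The acute phase genes were examined because 2-month replicate 1 was already known to be high in them. The count of 24 can therefore not be set against that rate. At 2 months replicate 1 was far above the rest for Saa1 (26570 CPM), Saa2 (34196), Lcn2 (3250), Orm1 (10236), Orm2 (5204), Hp (29087), Mt1 (1378), Mt2 (906.5) and Slc10a2 (20.36). Replicate 2 was far above for Ciart (27.68 CPM), Cry2 (52.76) and G0s2 (26.25), replicate 3 for Col4a2 (69.69), and replicate 4 for Cry1 (8.411), while replicate 3 was far below for Ppp1r3c (28.99). At 9 months replicate 5 was far above for Dbp (7.594 CPM), Tef (74.02), Per3 (5.864) and Bhlhe41 (1.923). Replicate 4 was far above for Saa1 (884.3 CPM), Saa2 (500.9), Slc39a4 (27.77) and Ccnb1 (1.026), and replicate 2 for Hspa1b (56.18).

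Of 61 genes examined, the change from 2 to 9 months in liver differed from that in skin for 29 and from that in blood for 24 (edgeR test of the interaction, adjusted p under 0.05). Over all genes these shares were 0.841% and 1.04%. Most of the 61 genes were named because of their change in the same livers, so the counts are a description. The values are liver minus the other tissue on the log2 scale. Among activators and late clock genes, Arntl differed by 2.543 from skin and 2.889 from blood, Npas2 by 3.661 from skin, Cry1 by 2.162 from skin and 1.707 from blood, and Nfil3 by 2.70 from skin. Among repressors and outputs, Per3 differed by -3.614 from skin and -3.381 from blood, Cry2 by -1.786 and -1.794, Ciart by -4.668 and -4.69, Bhlhe41 by -3.382 and -2.867, Dbp by -6.032 and -4.142, and Tef by -2.606 and -2.143. From skin alone, Nr1d1 differed by -2.744, Nr1d2 by -1.822, Hlf by -1.996 and Usp2 by -3.167. Outside the clock, the differences from skin and then from blood were 1.973 and 2.384 for Tspyl4, 1.656 and 1.62 for Clpx, -1.057 and -1.405 for Wdr6, -1.664 and -1.785 for Slc5a6, -1.777 and -3.658 for Upp2, 2.221 and 2.27 for Serpine2, 3.149 and 2.897 for Chka, 1.685 and 1.336 for Hsp90aa1, 1.63 and 1.247 for Hspa4l, 0.9216 and 1.232 for Chordc1 and -1.283 and -1.841 for Por. Skin alone differed for Grm8 (4.05), Trib3 (-2.738), Stip1 (1.077) and Cdkn1a (3.178). Blood alone differed for Hsf2bp (2.807), Slc39a4 (-1.884), Cdt1 (-1.604), Srebf1 (-1.701) and Zap70 (1.776). Skin and blood came from other mice than liver.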

How the results depend on the processing

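Of the 270 calls, 249 held with RLE scaling and 260 when only genes counted in all 24 livers were kept. The study left out genes undetected in any sample of an organism, so its own filter was not applied here. Without a filter, where more genes were tested, there were 119 (52 higher, 67 lower), with DESeq2 548 (248 and 300), with limma voom 200, with the 9 libraries alone 108 (46 and 62) and with the 2-month liver of the separate table added 437 (176 and 261). Leaving out 1 library at a time gave 37 to 265 calls, 13 to 108 higher and 24 to 168 lower, the fewest without 2-month replicate 2. The differences from skin numbered 158 and from blood 172, against 89 and 144 without a filter, and 153 and 280 without 2-month liver replicate 1. No paired analysis was possible because the liver libraries of the ages share no animal numbers in the labels.

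A pair of alternatives was chosen after seeing the data. Without 2-month replicates 1 and 2 there were 53 calls (21 and 32), 37 of them among the 270, and the log2 fold changes were 0.54 for Saa1, 0.73 for Saa2, 0.70 for Saa3, 1.44 for Lcn2, 0.28 for Orm1 and 0.19 for Orm2, the opposite sign of the fit with all libraries. With the clock score as covariate there were 165 calls, 29 of them higher, the sign turned for 43 of the 270 genes, and the change at least halved for 114. Values of opposite sign were -0.19 for Arntl, 0.28 for Per1, 1.29 for Per2, 0.63 for Per3, 0.98 for Nr1d2, 0.34 for Tef, 0.85 for Hlf, -1.24 for Nfil3, 0.78 for Usp2, -0.50 for Chka, 0.34 for Rgs16, 0.16 for Gys2, -0.025 for Ntrk2, -0.30 for Ccl2 and -0.46 for Cdkn1a. Arntl is part of the score, so its shift is not a separate result. The score and the age overlap in no library, and the cause of these shifts was not tested. The means rest on 5 and 4 mice, and their spread was estimated from the 24 livers of all ages. The part of sequencing depth in the precision was not tested.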
